A study of Mus musculus with 58 samples.

Results

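Primary mouse microglia that express a constitutively active form of IKKβ (IkbkbCA) were compared with control microglia (IkbkbWT). The comparison was defined by the genotype label of each sample, and it holds 10 of the 58 samples of the series, 5 in each group. IkbkbCA microglia were Cx3cr1CreERT2/+;IkbkbCAF/F, in which a floxed stop sequence holds back an active IKKβ inserted at the Rosa locus until Cre removes it. IkbkbWT microglia were Cx3cr1+/+;IkbkbCAF/F littermates, so they carried the same silent insertion but no Cre. Both genotypes were exposed to 4-hydroxytamoxifen in mixed glial culture. The cultures came from the hippocampus and cortex of newborn pups, and floating microglia were shaken off and used for RNA. The groups thus differed in the CreERT2 allele, which sits in Cx3cr1 itself, as well as in IKKβ activity, and the effects of the allele and of the kinase cannot be told apart in this comparison. The promoter that drives CreERT2 is that of Cx3cr1, which is active in microglia and other macrophages.

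IKKβ is the catalytic subunit of the IκB kinase complex. In resting cells, IκB proteins hold NF-κB dimers in the cytoplasm. Phosphorylation by IKKβ marks IκB for degradation, and dimers such as RelA:p50 then enter the nucleus and bind κB sites in the promoters of chemokine, cytokine and survival genes. Among these targets are the pathway's own inhibitors, which limit its duration. A second arm of the pathway depends on IKKα, NF-κB2 and RelB. In microglia, NF-κB is known as a driver of inflammatory gene expression.

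The libraries were made by QuantSeq 3′ mRNA-Seq, in which each read comes from near the 3′ end of a transcript. Total counts on genes were 4963353 to 8349128 per library in IkbkbWT and 3875467 to 7191603 in IkbkbCA. Levels are given as CPM, the count of a gene relative to the TMM-scaled library size, in the order of replicates 1 to 5, and ± after a log2 fold change is its standard error. The 12 microglial markers were all measured, with a summed level of 12819 to 17362 CPM in IkbkbWT and 15656 to 24074 CPM in IkbkbCA. Their medians were 13773 and 20492 CPM, and the ranges overlapped (two-sided exact permutation test, p = 0.0238, adjusted p = 0.0506 over 17 summed levels and library measures). Much of this sum was C1qa, a complement gene, at 5098 to 7128 CPM in IkbkbWT and 7952 to 12574 CPM in IkbkbCA. The sum thus does not measure the number or purity of microglia. Markers of other glia were present in both groups and differed mainly between libraries. The 11 oligodendrocyte markers summed to 5454 CPM in IkbkbWT replicate 3 and to 2086 CPM in IkbkbCA replicate 3, against 518 to 1326 CPM in the other libraries. Lymphocyte markers were at or near 0, with at most 0.735 CPM in sum. The 8 granulocyte markers summed to 6.78 to 12.2 CPM in IkbkbWT and 16.99 to 85.3 CPM in IkbkbCA, without overlap (exact permutation test, p = 0.00794, adjusted p = 0.0385). Most of this sum was S100a8, at 3.31 to 7.12 CPM in IkbkbWT and 13.8 to 75.9 CPM in IkbkbCA, while Ly6g had 1 count in all and Mpo and Elane had none in any library. The part of granulocytes in the results was not tested. The sum of the monocyte and dendritic cell markers was 7.93 to 14.04 CPM in IkbkbWT and 13.2 to 22.2 CPM in IkbkbCA (exact permutation test, p = 0.0159, adjusted p = 0.0385), and its part was not tested either.

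The 10 libraries fell into 3 sets that each held both genotypes. IkbkbWT replicates 1 and 2 and IkbkbCA replicates 1 and 2 formed the first set, the replicates numbered 3 the second and replicates 4 and 5 of both genotypes the third. Within a genotype, the 4 pairs of libraries from one set differed by a coefficient of variation of 7.17% to 8.31%, while the 16 pairs from different sets differed by 18.8% to 29.6%. No pair was identical, and the close pairs still differed by more than sampling noise, with a chi-square of 3.35 to 5.50 per gene. Deviations from the group means also correlated across genotypes within a set, at 0.32 to 0.59 over the tested genes in all 9 pairs. The labels do not say which libraries came from separate cultures. The p-values measure the spread between these libraries, which may in part be technical. With the close pairs summed, so that each genotype had 3 values, 240 of 12981 genes were higher and 97 lower in IkbkbCA. Counts from this fit are given below as counts from summed pairs. With the set as a covariate 1286 of 11697 genes were higher and 1560 lower. List counts from either fit are to be read against the numbers of the same fit. The sets also differed in sex-linked transcripts. Xist was at 2.76, 1.83, 1.73, 473 and 494 CPM in IkbkbWT and 277, 268, 263, 149 and 155 CPM in IkbkbCA. Y-linked Ddx3y was at 173, 164, 145, 1.16 and 2.08 CPM in IkbkbWT and 59.6, 53.7, 48.9, 85.8 and 68.6 CPM in IkbkbCA. IkbkbWT replicates 1 to 3 thus had the Y-linked transcript and almost no Xist, replicates 4 and 5 the reverse, and each IkbkbCA library had both.

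**Figure D1:**
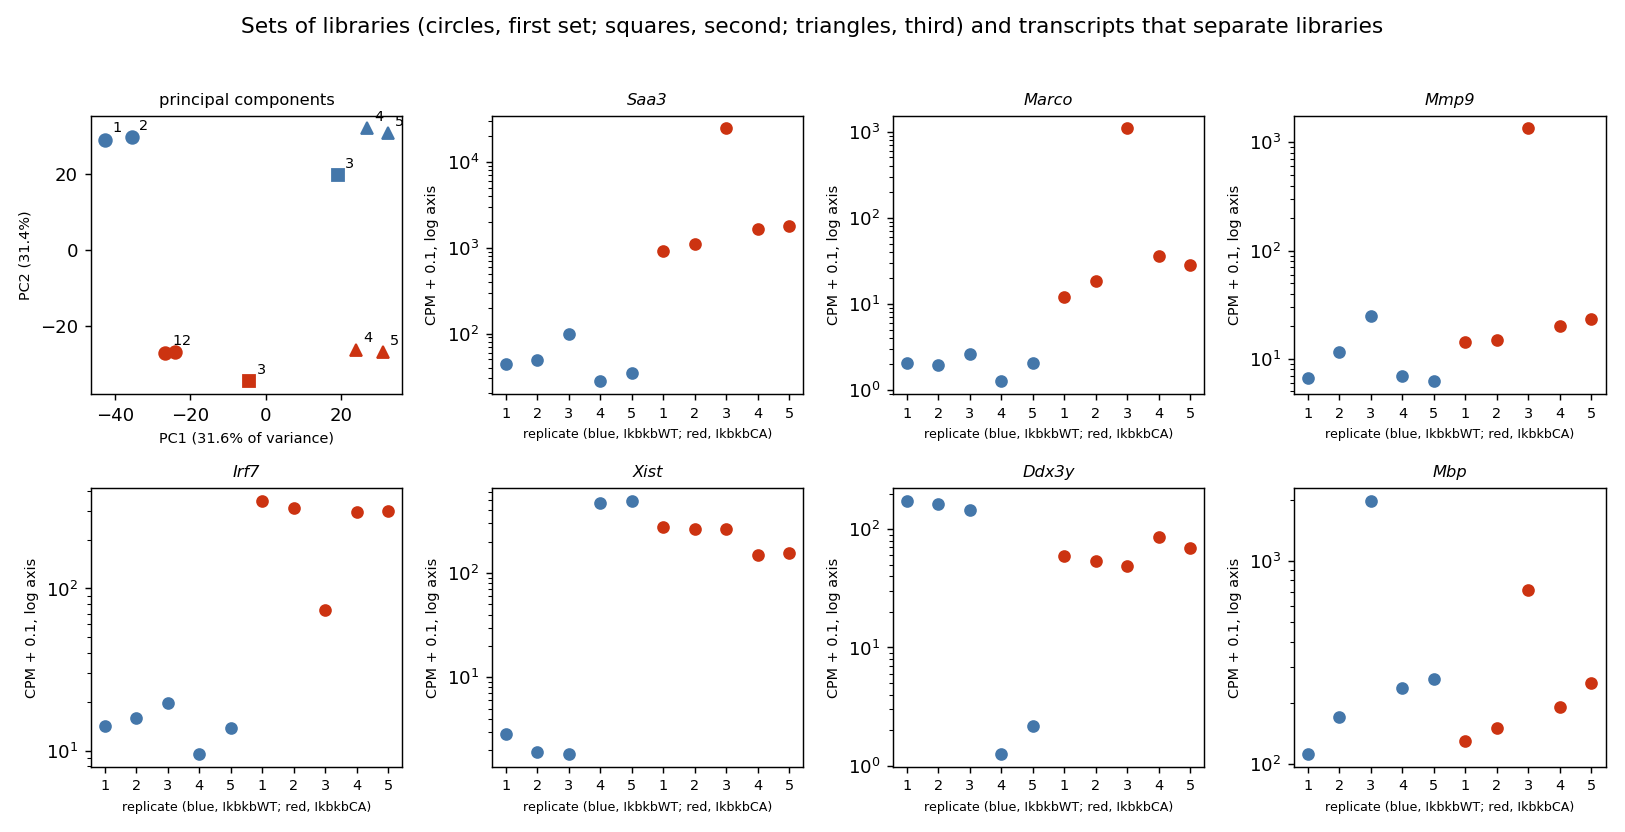
The first panel plots the 10 libraries on the first 2 principal components of log2 CPM, and the other panels plot 1 transcript each in every library (CPM + 0.1 on a log axis, blue for IkbkbWT, red for IkbkbCA, replicates 1 to 5 from left to right). The first component (31.6% of variance) separates the sets and the second (31.4%) the genotypes, and IkbkbCA replicate 3 lies far above the other libraries in Saa3, Marco and Mmp9 and below the other IkbkbCA libraries in Irf7.

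IkbkbCA replicate 3 stood apart from the other 4 IkbkbCA libraries. Its Mmp9, a gelatinase, was at 1352 CPM against 14.3 to 23.03 CPM in the other 4. It had the lowest level of its group in 47 of 50 interferon-response genes, with Irf7 at 73.4 CPM against 295 to 346 CPM. Without this library 941 genes were higher and 752 lower. Other measures followed the genotype. Mitochondrial transcripts made up 4.15 to 4.60% of the counts in IkbkbWT and 3.46 to 4.10% in IkbkbCA, without overlap (exact permutation test, p = 0.00794, adjusted p = 0.0385), and the part of this share in the results was not tested. Reads outside annotated genes made up 15.9 to 18.7% of the uniquely mapped reads in IkbkbWT and 12.4 to 13.99% in IkbkbCA, with no overlap (two-sided exact permutation test, p = 0.00794, adjusted p = 0.0385, the first being the smallest that 5 against 5 allows). With this share as a covariate, 15 genes were higher and 7 lower. Since the share separates the groups completely, its part in the results cannot be told apart from that of the genotype.

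Of 11697 genes tested, 855 were higher and 837 lower in IkbkbCA at an FDR under 0.05 (edgeR quasi-likelihood test), which is 7.31% and 7.16% of the genes tested. Counts of list members given below are to be read against these shares. A change of at least 2-fold was found for 343 of the genes that rose and 163 of those that fell, and a change of at least 4-fold for 117 and 17. The 2 groups did not overlap in 746 genes with IkbkbCA above and 742 with IkbkbCA below, together 12.7% of the genes tested. Of the 1692 DEGs, 1644 had the same direction within each of the 3 sets of libraries. The DEGs were called from these same libraries, so this agreement is not independent of the call. Scaled by total counts instead of TMM, 753 genes were higher and 1252 lower. Over all genes tested, the log2 fold change had a median of -0.047.

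**Figure D2:**
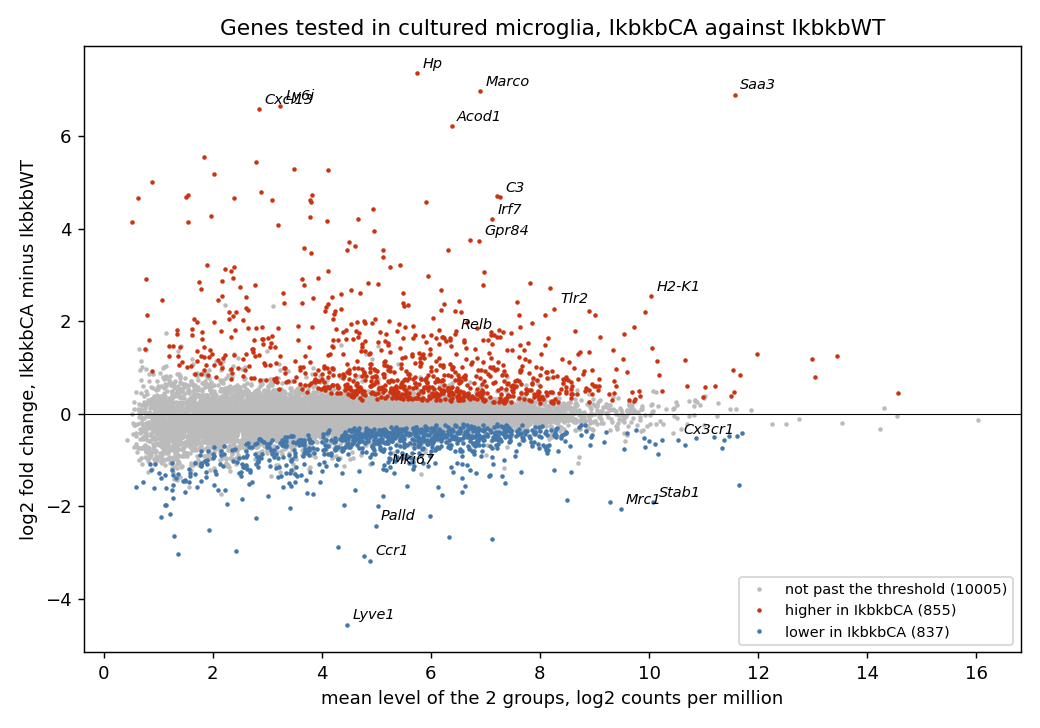
Each point is 1 of 11697 genes tested, with the mean CPM of the 2 groups on a log2 scale on the x axis and the log2 fold change between IkbkbCA and IkbkbWT on the y axis. The 855 genes higher in IkbkbCA (red) reach log2 fold changes above 6, as for Hp, Saa3 and Acod1, while among the 837 lower genes (blue) Lyve1 lies lowest.

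The 12 largest increases among genes whose groups did not overlap were those of Hp, Marco, Saa3, Acod1, Ly6i, Cxcl13, H2-Q6, Ifi208, Mcemp1, H2-M2, Fpr2 and Tnip3. Hp, which encodes haptoglobin, was at 0.488, 0.407, 0, 0.827 and 1.15 CPM in IkbkbWT and 23.6, 29.7, 424, 34.2 and 26.03 CPM in IkbkbCA (log2 fold change 7.35 ± 1.23, FDR = 0.00188). Marco, a scavenger receptor of macrophages, was at 1.95, 1.83, 2.50, 1.16 and 1.96 CPM in IkbkbWT and 11.9, 18.4, 1092, 36.2 and 28.0 CPM in IkbkbCA (log2 fold change 6.97 ± 1.54, FDR = 0.00957). Saa3, an acute phase protein made by macrophages, was at 43.9, 49.4, 99.3, 27.6 and 34.5 CPM in IkbkbWT and 908, 1100.0, 24726, 1669 and 1777 CPM in IkbkbCA (log2 fold change 6.89 ± 1.12, FDR = 0.00150). In all 3 the IkbkbWT libraries lay below every IkbkbCA library, as the selection required, and replicate 3 lay more than 10 times above the other IkbkbCA libraries. Acod1, which makes itaconate from the tricarboxylic acid cycle, was at 1.95, 2.24, 3.85, 0.993 and 2.19 CPM in IkbkbWT and 145, 148, 221, 149.9 and 161 CPM in IkbkbCA (log2 fold change 6.21 ± 0.24, FDR = 1.54e-07). Its 5 IkbkbCA libraries lay close together. Without replicate 3 the log2 fold change was 5.49 for Hp, 3.67 for Marco and 4.77 for Saa3, and all 3 still passed the threshold.

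Further genes among the 12 were close to absent in IkbkbWT. Ly6i, a member of the Ly6 family, was at 0.163, 0.203, 0.192, 0.331 and 0 CPM in IkbkbWT and 18.9, 17.3, 27.8, 14.2 and 15.02 CPM in IkbkbCA and was at least 37.0-fold higher in IkbkbCA, taking 3 counts per IkbkbWT library as the limit. Cxcl13, a B cell chemokine, was at 0.163, 0.203, 0, 0 and 0.231 CPM in IkbkbWT and 10.4, 5.95, 50.2, 2.10 and 2.50 CPM in IkbkbCA, at least 28.2-fold higher, a limit that falls to 10.4-fold without replicate 3. H2-Q6, a nonclassical MHC class I gene, was at 0, 0.203, 0.385, 0 and 0.115 CPM in IkbkbWT and 8.15, 7.48, 7.35, 8.102 and 4.26 CPM in IkbkbCA, at least 14.04-fold higher. These limits allow for counting error in IkbkbWT only and leave out the spread between IkbkbCA libraries. All 3 genes were detected in every IkbkbCA library. Ifi208, of the interferon-inducible p200 family, was at 0.163, 0.407, 0.385, 0 and 0.115 CPM in IkbkbWT and 9.68, 11.1, 6.44, 5.73 and 6.51 CPM in IkbkbCA, at least 15.7-fold higher. Mcemp1, a membrane protein of myeloid cells, was at 0, 0, 0, 0 and 0.346 CPM in IkbkbWT and 4.08, 2.88, 4.05, 4.19 and 3.004 CPM in IkbkbCA, at least 7.23-fold higher. Reads that fit several near-identical copies of the Ly6, H2-Q and Ifi200 families were dropped in counting. The levels of their members can thus be too low, and the split between them is uncertain.

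H2-M2, another nonclassical MHC class I gene, was at 0, 0.203, 0, 0.993 and 0.231 CPM in IkbkbWT and 2.04, 2.49, 54.1, 3.63 and 5.76 CPM in IkbkbCA (log2 fold change 5.45 ± 1.24, FDR = 0.0114). Fpr2, a formyl peptide receptor, was at 0.488, 0.407, 0.962, 0.165 and 0.692 CPM in IkbkbWT and 13.9, 16.9, 54.8, 10.8 and 13.8 CPM in IkbkbCA (log2 fold change 5.28 ± 0.59, FDR = 1.16e-04). Tnip3, which encodes an inhibitor that binds A20, was at 0.975, 1.42, 0.962, 0.662 and 0.461 CPM in IkbkbWT and 17.2, 16.3, 84.2, 27.2 and 24.5 CPM in IkbkbCA (log2 fold change 5.27 ± 0.57, FDR = 9.13e-05). Replicate 3 was again the highest IkbkbCA library for these 3 genes, by more than 3 times for Fpr2 and Tnip3 and more than 9 times for H2-M2. Without it the log2 fold change was 3.50 for H2-M2, 4.64 for Fpr2 and 4.62 for Tnip3, each past the threshold.

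The 12 largest decreases were likewise taken among genes whose groups did not overlap, and several belong to genes of resident and perivascular macrophages. Lyve1, a hyaluronan receptor, was at 33.2, 43.9, 54.4, 46.3 and 33.4 CPM in IkbkbWT and 1.36, 3.26, 0.184, 1.40 and 3.004 CPM in IkbkbCA (log2 fold change -4.56 ± 0.38, FDR = 1.75e-05). Ccr1, a receptor for CC chemokines, was at 50.9, 40.5, 62.5, 64.5 and 48.4 CPM in IkbkbWT and 3.91, 7.67, 4.23, 7.12 and 6.51 CPM in IkbkbCA (log2 fold change -3.18 ± 0.20, FDR = 3.06e-06). Egfl7, which encodes a secreted protein of the vessel wall, was at 48.8, 50.6, 66.6, 45.5 and 34.4 CPM in IkbkbWT and 8.32, 6.33, 3.31, 5.45 and 5.51 CPM in IkbkbCA (log2 fold change -3.08 ± 0.23, FDR = 7.64e-06). Each IkbkbCA library lay below every IkbkbWT library for these 3 genes, as the selection required. Ednrb, the type B endothelin receptor, was at 249.9, 274, 272, 234 and 179 CPM in IkbkbWT and 46.5, 46.2, 22.98, 29.6 and 40.1 CPM in IkbkbCA (log2 fold change -2.71 ± 0.20, FDR = 6.48e-06). Palld, an actin-binding protein, was at 51.4, 51.8, 44.1, 64.5 and 55.0 CPM in IkbkbWT and 9.34, 9.01, 12.9, 6.98 and 12.02 CPM in IkbkbCA (log2 fold change -2.42 ± 0.16, FDR = 4.57e-06). Ccl24, an eosinophil chemokine linked to alternative activation, was at 30.2, 27.2, 21.7, 49.1 and 46.1 CPM in IkbkbWT and 5.78, 6.52, 2.94, 5.45 and 2.75 CPM in IkbkbCA (log2 fold change -2.87 ± 0.30, FDR = 5.94e-05). The level of Ccl24 in IkbkbWT was higher in replicates 4 and 5 than in replicates 1 to 3.

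F13a1, the A subunit of coagulation factor XIII, was at 58.5, 86.6, 89.8, 248 and 214 CPM in IkbkbWT and 11.9, 7.67, 14.3, 41.2 and 35.3 CPM in IkbkbCA (log2 fold change -2.66 ± 0.52, FDR = 0.00505), and both genotypes had more of it in replicates 4 and 5. Cbr2, a carbonyl reductase of perivascular macrophages, was at 11.9, 10.979, 9.04, 9.43 and 6.69 CPM in IkbkbWT and 1.53, 1.92, 0.184, 1.54 and 0.751 CPM in IkbkbCA (log2 fold change -2.96 ± 0.38, FDR = 3.27e-04). Clec10a, a lectin of alternatively activated macrophages, was at 4.06, 8.54, 7.12, 8.11 and 4.61 CPM in IkbkbWT and 1.36, 1.73, 0.368, 0.698 and 1.502 CPM in IkbkbCA (log2 fold change -2.52 ± 0.38, FDR = 9.29e-04). For these 3 genes every IkbkbCA library lay below every IkbkbWT library, again by selection. Pparg, a nuclear receptor of lipid metabolism, was at 13.3, 12.2, 9.04, 12.6 and 10.1 CPM in IkbkbWT and 4.25, 3.07, 1.10, 2.10 and 1.25 CPM in IkbkbCA (log2 fold change -2.25 ± 0.32, FDR = 5.83e-04). Cmah, which makes the sialic acid Neu5Gc, was at 4.23, 4.47, 6.16, 3.97 and 2.42 CPM in IkbkbWT and 0.680, 0.959, 0.735, 0.419 and 0.501 CPM in IkbkbCA (log2 fold change -2.65 ± 0.34, FDR = 3.07e-04). Nxpe5 was at 3.74, 6.71, 6.16, 2.48 and 3.92 CPM in IkbkbWT and 0.340, 0.192, 1.65, 0.419 and 0 CPM in IkbkbCA (log2 fold change -3.04 ± 0.58, FDR = 0.00415). These last genes were at low levels in both genotypes.

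Transcripts of several NF-κB subunits and IκB proteins rose in IkbkbCA, while most of the IKK complex and its kinases did not pass the threshold. Among NF-κB subunits and IκB proteins, 7 of 11 tested members were higher, 1 lower and 3 did not pass the threshold, with a median log2 fold change of 0.58, and among feedback regulators and TRAF adaptors 6 of 15 were higher and 2 lower (median 0.44). Across all genes tested 7.31% were higher and 7.16% lower. From summed pairs, 4 and 4 members of the 2 lists were higher and 0 lower in either. Among the IKK subunits and upstream kinases 2 of 11 were higher and 1 was from summed pairs.

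Ikbkb itself (chr8:22659212-22706589, GRCm38, minus strand), the gene that the insertion copies, was at 45.5, 58.6, 41.2, 44.0 and 45.1 CPM in IkbkbWT and 55.2, 59.8, 55.9, 45.0 and 46.8 CPM in IkbkbCA (log2 fold change 0.17 ± 0.12, FDR = 0.405). The groups overlapped. The 3′ end of the inserted copy is not given in the sources used here, so a 3′ tag on Ikbkb need not count transcripts of the insertion. The paper reports raised Ikbkb mRNA in IkbkbCA primary microglia by RT-qPCR. Chuk, which encodes IKKα, was at 52.5, 37.0, 40.0, 35.1 and 41.7 CPM in IkbkbWT and 37.4, 38.9, 41.6, 39.0 and 45.6 CPM in IkbkbCA (log2 fold change -0.031 ± 0.11, FDR = 0.902). Ikbkg, which encodes the regulatory subunit NEMO, was at 32.7, 25.01, 25.01, 24.98 and 20.6 CPM in IkbkbWT and 31.9, 33.8, 39.5, 26.4 and 29.5 CPM in IkbkbCA (log2 fold change 0.33 ± 0.14, FDR = 0.147). Neither passed the threshold. Ikbke, the inducible IKK-related kinase, was at 19.3, 21.1, 20.6, 17.9 and 14.3 CPM in IkbkbWT and 60.8, 54.8, 90.5, 56.2 and 58.8 CPM in IkbkbCA and rose by 1.79 ± 0.16 on the log2 scale (FDR = 2.56e-05). Map3k7, which encodes the IKK activator TAK1, was at 98.5, 84.8, 71.8, 90.5 and 86.5 CPM in IkbkbWT and 102, 109, 99.7, 112 and 105.4 CPM in IkbkbCA (log2 fold change 0.29 ± 0.087, FDR = 0.0470). The call for Map3k7 was lost without any 1 of IkbkbWT replicates 2, 3, 4 and 5 or IkbkbCA replicates 1, 2, 4 and 5 (log2 fold change 0.23 to 0.33).

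Relb, the partner of p52 in the IKKα-dependent arm, was at 44.7, 37.8, 43.7, 33.6 and 42.7 CPM in IkbkbWT and 141, 142, 145, 116 and 125 CPM in IkbkbCA (log2 fold change 1.72 ± 0.10, FDR = 1.83e-06). Nfkb2, the precursor of p52, was at 14.1, 17.3, 19.4, 16.7 and 17.4 CPM in IkbkbWT and 43.7, 45.8, 47.4, 31.7 and 38.5 CPM in IkbkbCA (log2 fold change 1.28 ± 0.13, FDR = 5.04e-05). Rela, the main activating subunit, was at 226, 219, 198, 202 and 218 CPM in IkbkbWT and 319.7, 325, 266, 261 and 271 CPM in IkbkbCA (log2 fold change 0.44 ± 0.085, FDR = 0.00456). In these 3 genes every IkbkbCA library exceeded every IkbkbWT library, and the change in Relb was 3.30-fold against 1.36-fold in Rela. Nfkb1, the precursor of p50, was at 62.9, 49.0, 53.7, 45.2 and 48.3 CPM in IkbkbWT and 72.2, 83.2, 104.6, 62.0 and 64.3 CPM in IkbkbCA (log2 fold change 0.58 ± 0.15, FDR = 0.0220), with an overlap of the groups. The call for Nfkb1 was lost without any 1 of IkbkbWT replicates 2, 4 and 5 or IkbkbCA replicate 2 (log2 fold change 0.53 to 0.56). Rel, which encodes c-Rel, was at 47.5, 45.3, 49.6, 41.9 and 46.6 CPM in IkbkbWT and 55.4, 53.5, 41.6, 43.0 and 36.0 CPM in IkbkbCA (log2 fold change -0.0064 ± 0.12, FDR = 0.983) and did not pass the threshold.

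Nfkbia and Nfkbie rose among the genes of IκB proteins that hold dimers in the cytoplasm, and Nfkbiz and Nfkbid among those of nuclear IκB proteins moved in opposite directions. Nfkbia, which encodes IκBα, was at 375, 385, 340.1, 342 and 370.1 CPM in IkbkbWT and 869, 920.1, 1299, 801 and 815 CPM in IkbkbCA (log2 fold change 1.38 ± 0.13, FDR = 3.67e-05). Nfkbie, which encodes IκBε, was at 4.39, 4.88, 6.92, 6.95 and 4.96 CPM in IkbkbWT and 20.2, 28.2, 43.8, 25.7 and 27.5 CPM in IkbkbCA (log2 fold change 2.37 ± 0.22, FDR = 3.67e-05). Nfkbid, an atypical nuclear IκB, was the member that fell and was at 6.18, 5.08, 7.31, 7.45 and 7.38 CPM in IkbkbWT and 3.57, 4.60, 5.15, 3.21 and 3.004 CPM in IkbkbCA (log2 fold change -0.77 ± 0.21, FDR = 0.0292). The call for Nfkbid was lost without any 1 of IkbkbWT replicates 1, 3, 4 and 5 or IkbkbCA replicates 1, 4 and 5 (log2 fold change -0.70 to -0.76). Nfkbiz, another nuclear IκB protein, rose (log2 fold change 0.65 ± 0.13, FDR = 0.00581) and was named after its values were seen. For Nfkbia and Nfkbie the groups did not overlap. Nfkbib, which encodes the cytoplasmic IκBβ (log2 fold change 0.29 ± 0.098, FDR = 0.0752), and Bcl3, a nuclear IκB protein (log2 fold change 0.33 ± 0.14, FDR = 0.149), did not pass the threshold and were also named after their values were seen.

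Among the feedback regulators, Tnfaip3, which encodes the deubiquitinase A20, was at 15.3, 14.6, 11.9, 15.7 and 20.8 CPM in IkbkbWT and 27.0, 31.8, 66.9, 41.9 and 32.5 CPM in IkbkbCA (log2 fold change 1.35 ± 0.24, FDR = 0.00289). Birc3, a ubiquitin ligase that acts on receptor complexes, was at 13.7, 14.8, 12.7, 12.2 and 15.8 CPM in IkbkbWT and 33.6, 42.0, 47.8, 38.0 and 35.8 CPM in IkbkbCA (log2 fold change 1.51 ± 0.12, FDR = 1.47e-05). Tnip1, another A20-binding inhibitor, was at 44.1, 38.6, 40.4, 40.0 and 39.7 CPM in IkbkbWT and 125, 119, 173, 95.96 and 103 CPM in IkbkbCA (log2 fold change 1.599 ± 0.15, FDR = 2.92e-05). All 3 were higher in each IkbkbCA library. Traf3, which restrains the IKKα-dependent arm, rose by 1.02 ± 0.11 (FDR = 7.35e-05), and Traf6, an adaptor of Toll-like receptors, fell (log2 fold change -0.52 ± 0.11, FDR = 0.00695). Traf1 was at 0, 0.203, 2.89, 0.827 and 1.15 CPM in IkbkbWT and 2.38, 1.34, 9.01, 1.82 and 2.50 CPM in IkbkbCA and did not pass the threshold (log2 fold change 1.74 ± 0.76, FDR = 0.163, or FDR = 0.00726 with the set as a covariate and 0.477 from summed pairs).

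**Figure D3:**
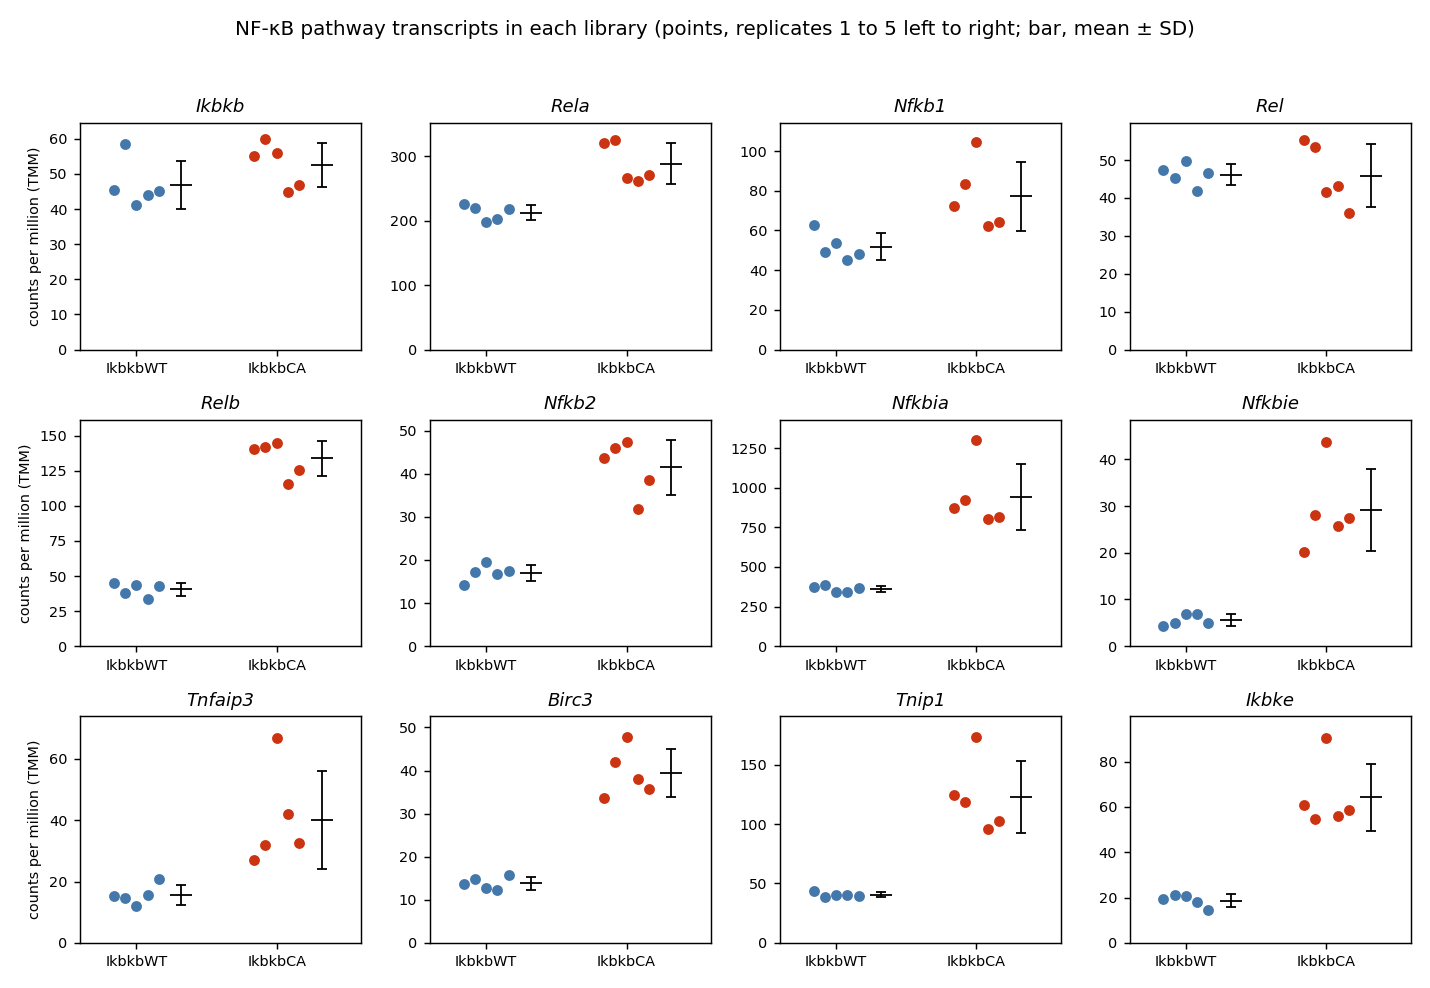
Each panel plots 1 transcript of the NF-κB pathway in CPM for the 5 IkbkbWT (blue) and 5 IkbkbCA (red) libraries, with the mean ± SD beside them. The IkbkbCA libraries lie above all IkbkbWT libraries for Relb, Nfkb2, Nfkbia, Nfkbie, Tnfaip3, Birc3, Tnip1 and Ikbke, while Ikbkb and Rel overlap.

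The promoters of 3 of these genes and of the chemokine gene Cxcl10 are shown because each holds a match to the κB consensus, the sequence that NF-κB dimers bind. They come from RefSeq promoters on GRCm38.p6, each 250 bases before to 50 after a gene's start. Capitals mark the κB consensus on either strand and, in Nfkbia, also a match to GAAANNGAA.
Nfkbia (chr12:55492637-55492706, minus strand): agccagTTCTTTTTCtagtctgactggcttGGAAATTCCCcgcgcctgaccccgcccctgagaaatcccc
Nfkbie (chr17:45555564-45555633, plus strand): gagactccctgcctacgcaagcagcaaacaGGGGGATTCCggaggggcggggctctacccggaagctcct
Tnip1 (chr11:54962959-54963028, minus strand): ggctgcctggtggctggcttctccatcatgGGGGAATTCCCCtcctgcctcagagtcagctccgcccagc
Cxcl10 (chr5:92349009-92349078, minus strand): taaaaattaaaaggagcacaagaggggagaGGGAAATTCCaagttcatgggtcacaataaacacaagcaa
In Tnip1 the capitals join overlapping matches. The consensus was found in 1480 of 32851 promoters (4.51%), and counted per gene in 1388 of 27025 genes (5.14%). Among the members of the 2 NF-κB lists with a promoter in the table, 6 of 8 subunits and IκB proteins and 5 of 14 feedback regulators and adaptors held a match. Of the 685 higher DEGs with a promoter, 80 held one, against 569 of 8961 tested genes. A match is a string of letters and does not show that NF-κB binds there in these cells.

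Chemokines changed in both directions, with the tested CXC members higher and the CC members mixed. All 5 tested CXC chemokines were higher (median log2 fold change 2.82), and the other 6 listed members had too few counts to be tested. Cxcl10 and Cxcl13 passed the filter on low counts only through IkbkbCA, so entry to the test already favoured a rise in these genes. Of 11 tested CC chemokines 2 (18.2%) were higher and 3 (27.3%) lower (median -0.34). From summed pairs 2 CXC chemokines were higher, and 2 CC chemokines were higher and 2 lower. Cxcl16, a membrane-bound ligand of Cxcr6, was at 88.6, 78.5, 95.0, 63.5 and 58.7 CPM in IkbkbWT and 571, 548, 501, 467 and 421 CPM in IkbkbCA (log2 fold change 2.71 ± 0.15, FDR = 1.04e-06). Cxcl10, an interferon-induced ligand of Cxcr3, was at 1.14, 0.203, 4.81, 2.65 and 2.65 CPM in IkbkbWT and 21.6, 23.8, 21.7, 31.4 and 30.3 CPM in IkbkbCA (log2 fold change 3.47 ± 0.42, FDR = 2.25e-04). Both lay above IkbkbWT in every IkbkbCA library. Cxcl14 changed less (log2 fold change 0.64 ± 0.13, FDR = 0.00503). Ccl12, a monocyte chemoattractant, was at 17.2, 21.3, 29.05, 14.9 and 15.8 CPM in IkbkbWT and 130.5, 135, 59.4, 148 and 153 CPM in IkbkbCA (log2 fold change 2.68 ± 0.26, FDR = 4.99e-05). Ccl5, which attracts T cells, was at 3.41, 2.44, 6.35, 1.32 and 0.807 CPM in IkbkbWT and 94.1, 86.5, 32.5, 41.1 and 39.8 CPM in IkbkbCA (log2 fold change 4.42 ± 0.49, FDR = 1.09e-04). In both genes the groups did not overlap, and IkbkbCA replicate 3 had the lowest level of its group. Ccl6 was at 204, 206, 217, 181 and 149.9 CPM in IkbkbWT and 91.2, 81.5, 82.6, 63.1 and 58.3 CPM in IkbkbCA and fell (log2 fold change -1.34 ± 0.14, FDR = 6.90e-05), as did Ccl3, an inflammatory chemokine of microglia, at 212 to 286 CPM in IkbkbWT and 102 to 198 CPM in IkbkbCA (log2 fold change -0.54 ± 0.16, FDR = 0.0495). The call for Ccl3 was lost without any 1 of IkbkbWT replicates 1, 2, 3, 4 and 5 or IkbkbCA replicates 1, 2, 4 and 5 (log2 fold change -0.47 to -0.60). Ccl2 was at 45.5 to 83.4 CPM in IkbkbWT and 41.5 to 89.5 CPM in IkbkbCA and did not pass the threshold (log2 fold change 0.073 ± 0.25, FDR = 0.894).

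Among cytokines, 2 of 13 tested members (15.4%) were higher, 0 lower and 11 did not pass the threshold, with a median log2 fold change of 0.19. Across all genes tested 7.31% were higher and 7.16% lower. The other 13 listed members were not tested. Il1b, the precursor of interleukin-1β, was at 27.3, 24.4, 56.0, 16.1 and 19.7 CPM in IkbkbWT and 269.9, 208, 56.6, 123 and 116 CPM in IkbkbCA (log2 fold change 2.44 ± 0.43, FDR = 0.00262). The lowest IkbkbCA value, in replicate 3, was just above the highest IkbkbWT value, also in replicate 3. Il18 was at 41.1, 37.6, 41.4, 34.3 and 39.5 CPM in IkbkbWT and 59.1, 61.0, 33.8, 67.3 and 67.6 CPM in IkbkbCA (log2 fold change 0.57 ± 0.16, FDR = 0.0349), with IkbkbCA replicate 3 below every IkbkbWT library. The call for Il18 was lost without any 1 of IkbkbWT replicates 2, 3, 4 and 5 or IkbkbCA replicates 1, 2, 4 and 5 (log2 fold change 0.51 to 0.60). From summed pairs 0 of the cytokines were higher. Tnf was at 15.9, 11.8, 20.8, 15.7 and 25.4 CPM in IkbkbWT and 20.2, 20.1, 59.4, 27.7 and 26.8 CPM in IkbkbCA and did not pass the threshold (log2 fold change 0.77 ± 0.31, FDR = 0.123, or FDR = 0.0143 with the set as a covariate and 0.328 from summed pairs). Il6 was at 0 to 0.662 CPM in IkbkbWT and 0 to 2.003 CPM in IkbkbCA, below the level needed for a test.

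Receptors for these ligands changed in both directions. Of 23 tested cytokine receptors 5 were higher and 3 lower (median 0.16), and of 20 chemokine receptors and adhesion molecules 5 were higher and 3 lower (median 0.53). The set as a covariate gave 10 higher and 5 lower cytokine receptors and 11 higher and 5 lower members of the other list. In that fit 1286 of all 11697 genes were higher and 1560 lower. Il2rg, the common γ chain of several interleukin receptors, was at 6.34, 10.979, 12.7, 7.45 and 5.19 CPM in IkbkbWT and 70.2, 82.3, 92.3, 64.3 and 78.3 CPM in IkbkbCA (log2 fold change 3.21 ± 0.22, FDR = 4.87e-06). Il6ra, the interleukin-6 receptor, was at 106, 111, 88.9, 104 and 105.3 CPM in IkbkbWT and 66.8, 76.9, 49.3, 55.0 and 58.6 CPM in IkbkbCA (log2 fold change -0.75 ± 0.12, FDR = 0.00122). Its signalling partner Il6st also fell (log2 fold change -0.59 ± 0.098, FDR = 0.00170), and Tgfbr1, a TGF-β receptor, rose (log2 fold change 1.05 ± 0.17, FDR = 0.00148). Csf1r, the receptor on which microglia depend for survival, was at 1244 to 2077 CPM in IkbkbWT and 1536 to 2267 CPM in IkbkbCA (log2 fold change 0.16 ± 0.15, FDR = 0.564). Ccrl2, a decoy receptor for chemerin, was at 16.7, 15.7, 20.6, 15.7 and 21.4 CPM in IkbkbWT and 66.1, 60.6, 47.6, 46.1 and 46.3 CPM in IkbkbCA (log2 fold change 1.56 ± 0.14, FDR = 2.85e-05). Itgal, an integrin chain of leukocytes, and Cxcr4, the receptor for Cxcl12, rose by 1.63 ± 0.15 (FDR = 3.73e-05) and 1.19 ± 0.13 (FDR = 9.13e-05) on the log2 scale. Icam1, which binds leukocyte integrins, was at 22.999 to 37.2 CPM in IkbkbWT and 37.0 to 67.3 CPM in IkbkbCA (log2 fold change 0.71 ± 0.18, FDR = 0.0184). The call for Icam1 was lost without IkbkbCA replicate 2 (log2 fold change 0.67). Cx3cr1, the fractalkine receptor, was at 1971, 1941, 1613, 1762 and 1526 CPM in IkbkbWT and 1233, 1304, 1162, 1133 and 1130.2 CPM in IkbkbCA (log2 fold change -0.56 ± 0.092, FDR = 0.00153). Every IkbkbCA library was below every IkbkbWT library, and one of the 2 copies of Cx3cr1 is replaced by CreERT2 in IkbkbCA alone.

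Innate sensors that rose included Tlr2 and lectins of the Dectin-2 family. Among pattern recognition receptors and their adaptors, 8 of 22 tested members were higher, 2 lower and 12 did not pass the threshold, with a median log2 fold change of 0.21. Tlr2, a receptor for bacterial lipopeptides, was at 97.9, 106, 100.4, 100.6 and 124 CPM in IkbkbWT and 565, 529.9, 422, 565 and 469 CPM in IkbkbCA (log2 fold change 2.27 ± 0.11, FDR = 3.21e-07). Clec4n, which encodes Dectin-2, was at 96.2, 95.4, 104, 87.2 and 86.2 CPM in IkbkbWT and 189, 169.7, 170.3, 218 and 199 CPM in IkbkbCA (log2 fold change 1.01 ± 0.091, FDR = 2.56e-05). Both were above every IkbkbWT library in all IkbkbCA libraries. Clec4d, which encodes the lectin MCL, rose by 2.82 ± 0.30 (FDR = 8.66e-05), and Tlr3, a sensor of double-stranded RNA, by 1.45 ± 0.19 (FDR = 3.52e-04). Irak1, a kinase below Toll-like receptors, fell (log2 fold change -0.39 ± 0.11, FDR = 0.0283). The call for Irak1 was lost without any 1 of IkbkbWT replicates 1 and 2 or IkbkbCA replicates 1, 3, 4 and 5 (log2 fold change -0.28 to -0.40).

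Of the 10 tested inflammasome genes 4 were higher and 0 lower (median 0.28). Casp4, the sensor of intracellular lipopolysaccharide, was at 12.4, 12.4, 13.5, 11.3 and 11.5 CPM in IkbkbWT and 26.2, 19.8, 21.7, 29.2 and 23.8 CPM in IkbkbCA (log2 fold change 0.99 ± 0.13, FDR = 3.41e-04). Nlrp3 was at 18.5, 22.2, 19.2, 23.2 and 28.2 CPM in IkbkbWT and 36.4, 40.5, 71.0, 45.8 and 54.6 CPM in IkbkbCA (log2 fold change 1.15 ± 0.18, FDR = 0.00141). Naip2 (log2 fold change 0.65 ± 0.12, FDR = 0.00443) and Casp1 (log2 fold change 0.51 ± 0.11, FDR = 0.00751) rose by smaller amounts. From summed pairs 5 pattern recognition genes and 2 inflammasome genes were higher.

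Several complement components rose, among them C3. Of 15 tested complement genes 7 were higher and 1 lower (median 0.28). C3, the central component, was at 6.18, 7.32, 31.0, 7.28 and 7.15 CPM in IkbkbWT and 342, 289, 426, 235 and 184 CPM in IkbkbCA (log2 fold change 4.67 ± 0.46, FDR = 4.99e-05). The IkbkbWT library with the most C3 was replicate 3, the library with the most astrocyte and oligodendrocyte markers, and the part of those cells in its level was not tested. Without that library the log2 fold change of C3 was 5.405. Cfp, which encodes properdin, and C1qa, a chain of C1q, rose by 1.87 ± 0.24 (FDR = 3.07e-04) and 0.80 ± 0.15 (FDR = 0.00311).

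Receptors for uptake split in 2 directions, with 6 of 22 higher and 7 lower (median 0.098). Stab1, a scavenger receptor of resident macrophages, was at 1953, 1882, 1215, 1893 and 1611 CPM in IkbkbWT and 451, 474, 515, 435 and 393 CPM in IkbkbCA (log2 fold change -1.92 ± 0.13, FDR = 4.87e-06). Cd36, a receptor for lipids, was at 107, 83.8, 88.3, 161 and 127 CPM in IkbkbWT and 30.2, 25.7, 42.5, 35.5 and 33.8 CPM in IkbkbCA (log2 fold change -1.76 ± 0.19, FDR = 9.13e-05). Lrp1, a receptor for lipoproteins, fell as well (log2 fold change -0.69 ± 0.086, FDR = 2.76e-04). Olr1, a receptor for oxidized LDL, was at 0.385 to 1.79 CPM in IkbkbWT and 5.56 to 18.2 CPM in IkbkbCA and rose (log2 fold change 3.16 ± 0.44, FDR = 5.10e-04). Fcgr1, the high-affinity Fc receptor, was at 139, 126, 109, 91.7 and 94.0 CPM in IkbkbWT and 268, 258, 90.3, 242 and 209 CPM in IkbkbCA (log2 fold change 0.93 ± 0.25, FDR = 0.0260), and its value in IkbkbCA replicate 3 was below every IkbkbWT value. The call for Fcgr1 was lost without any 1 of IkbkbWT replicates 3, 4 and 5 or IkbkbCA replicates 1, 2 and 4 (log2 fold change 0.86 to 0.93). From summed pairs 2 complement genes were higher and 1 lower, and 1 uptake receptor was higher and 3 lower.

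The interferon response and MHC class I presentation rose almost as a whole. Of the 50 interferon-response genes, all of which were tested, 49 were higher and 0 lower, and their log2 fold changes ran from 0.76 to 4.72 (median 2.17). The exception was Gbp7 (log2 fold change 0.97 ± 0.30, FDR = 0.0531), named after its values were seen. The groups did not overlap in 47 of the 50, against 12.7% of all genes tested. Ddx58, which encodes the RNA sensor RIG-I, was at 17.2, 13.2, 18.3, 11.1 and 15.4 CPM in IkbkbWT and 82.4, 76.1, 48.9, 89.1 and 81.1 CPM in IkbkbCA (log2 fold change 2.33 ± 0.18, FDR = 1.04e-05). Ifih1, which encodes the RNA sensor MDA5, was at 25.7, 19.5, 27.1, 18.4 and 18.3 CPM in IkbkbWT and 85.8, 86.3, 57.7, 86.5 and 86.4 CPM in IkbkbCA (log2 fold change 1.89 ± 0.15, FDR = 1.55e-05). Irf7, a transcription factor that amplifies type I interferon, was at 14.1, 15.9, 19.6, 9.43 and 13.6 CPM in IkbkbWT and 346, 315, 73.4, 295 and 298 CPM in IkbkbCA (log2 fold change 4.20 ± 0.38, FDR = 2.98e-05). In all 3 the lowest IkbkbCA value was that of replicate 3, still above IkbkbWT. Tor3a (log2 fold change 1.99 ± 0.17, FDR = 1.75e-05) and Slfn2 (log2 fold change 1.33 ± 0.11, FDR = 1.77e-05), both interferon-inducible, rose as well. Without replicate 3, as with the set as a covariate, all 50 genes were higher, and from summed pairs 25 were.

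Part of the promoter of Ifih1 is shown for its match to GAAANNGAA, the core of the element that IRF factors bind. Capitals mark matches on either strand.
Ifih1 (chr2:62646329-62646397, minus strand): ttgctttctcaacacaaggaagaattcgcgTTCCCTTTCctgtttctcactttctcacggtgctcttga
GAAANNGAA was found in 2812 of 32851 promoters (8.56%), and counted per gene in 2638 of 27025 genes (9.76%). Among tested genes with a promoter 774 of 8961 held it, and among higher DEGs 117 of 685. Of the 37 interferon-response genes with a promoter in the table, 21 held it and 4 held the κB consensus.

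Of 18 MHC class I presentation genes 17 were higher and 0 lower (median 1.29), and Tap2, a peptide transporter subunit named after its values were seen, did not pass the threshold (log2 fold change 0.62 ± 0.22, FDR = 0.0848). H2-K1, a classical class I heavy chain, was at 290.2, 314, 475, 241 and 224 CPM in IkbkbWT and 1864, 1748, 1761, 1874 and 1726 CPM in IkbkbCA (log2 fold change 2.54 ± 0.18, FDR = 5.93e-06). H2-Q7, of the Qa-2 family, was at 0.975, 1.02, 2.89, 0.496 and 0.461 CPM in IkbkbWT and 26.3, 30.9, 28.1, 25.8 and 22.03 CPM in IkbkbCA (log2 fold change 4.57 ± 0.37, FDR = 1.47e-05). For both genes the IkbkbCA libraries lay close together and above every IkbkbWT library. Tapbp, which encodes tapasin of the peptide-loading complex, rose by 1.296 ± 0.12 (FDR = 3.42e-05). H2-Q6 and H2-Q7 passed the filter on low counts only through IkbkbCA. From summed pairs 6 of the list were higher.

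Class II genes were at low levels. Of 12 tested class II and costimulation genes 6 were higher and 1 lower (median 0.81). Cd74, the invariant chain, was at 1.14, 1.22, 1.92, 0.993 and 1.27 CPM in IkbkbWT and 9.34, 9.59, 5.15, 6.70 and 7.76 CPM in IkbkbCA (log2 fold change 2.55 ± 0.26, FDR = 5.94e-05). H2-Ab1, a class II β chain, was at 2.93, 2.85, 1.54, 3.81 and 3.69 CPM in IkbkbWT and 8.49, 11.1, 15.6, 9.36 and 10.01 CPM in IkbkbCA (log2 fold change 1.86 ± 0.26, FDR = 5.10e-04). Cd200r1, an inhibitory receptor, fell (log2 fold change -0.90 ± 0.15, FDR = 0.00153).

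Several target genes of p53 rose and several genes of mitosis fell. Among p53-response genes, 11 of 25 tested members were higher, 1 lower and 13 did not pass the threshold, with a median log2 fold change of 0.54. Among genes of DNA replication and mitosis, 0 of 44 tested members were higher, 14 lower and 30 did not pass the threshold, with a median log2 fold change of -0.48. Cdkn1a, which encodes the cyclin-dependent kinase inhibitor p21, was at 245, 268, 365, 256 and 216 CPM in IkbkbWT and 624, 743, 704, 674 and 651 CPM in IkbkbCA (log2 fold change 1.33 ± 0.13, FDR = 4.19e-05). Trp53inp1, a stress-induced partner of p53, was at 20.97, 16.9, 29.2, 22.3 and 21.7 CPM in IkbkbWT and 52.0, 51.2, 39.5, 45.3 and 54.6 CPM in IkbkbCA (log2 fold change 1.12 ± 0.14, FDR = 2.58e-04). Neither gene's groups overlapped. Mdm2, the ubiquitin ligase that limits p53, rose by 0.72 ± 0.12 (FDR = 0.00149), Ccng1 by 0.96 ± 0.13 (FDR = 5.53e-04) and Psrc1 by 1.44 ± 0.18 (FDR = 3.09e-04), while Sesn1, a stress sensor, fell (log2 fold change -0.66 ± 0.12, FDR = 0.00256). Cenpa, the centromeric histone, was at 149.9, 168, 104, 162 and 147 CPM in IkbkbWT and 45.5, 49.1, 35.9, 44.8 and 51.1 CPM in IkbkbCA (log2 fold change -1.69 ± 0.14, FDR = 1.55e-05). Mki67, the proliferation marker, was at 46.7, 46.8, 56.7, 47.0 and 56.3 CPM in IkbkbWT and 20.6, 19.6, 27.2, 23.5 and 18.3 CPM in IkbkbCA (log2 fold change -1.21 ± 0.12, FDR = 4.99e-05). In both the IkbkbCA libraries lay below all IkbkbWT libraries. The mitotic genes Cenpe (log2 fold change -0.95 ± 0.11, FDR = 1.86e-04) and Nusap1 (log2 fold change -0.75 ± 0.11, FDR = 9.30e-04) fell too, whereas Pcna, a replication clamp, was at 33.7 to 58.5 CPM in IkbkbWT and 32.3 to 50.2 CPM in IkbkbCA and did not pass the threshold (log2 fold change -0.19 ± 0.16, FDR = 0.513). From summed pairs 3 p53-response genes were higher and 3 genes of replication and mitosis lower. With 1 library left out at a time, 10 to 12 p53-response genes were higher and 7 to 17 genes of replication and mitosis lower, the latter fewest without IkbkbWT replicate 5 or IkbkbCA replicate 1 or 2.

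Survival genes changed in a few members, with 3 of 24 higher and 1 lower (median 0.042). Cflar, which encodes the caspase-8 inhibitor c-FLIP, was at 151, 135, 109, 131 and 153 CPM in IkbkbWT and 253, 264, 249, 264 and 279.6 CPM in IkbkbCA (log2 fold change 0.95 ± 0.095, FDR = 5.04e-05). Mcl1, an anti-apoptotic member of the BCL-2 family, was at 525, 527, 476, 515 and 608 CPM in IkbkbWT and 817, 774, 826, 820.2 and 799.8 CPM in IkbkbCA (log2 fold change 0.61 ± 0.077, FDR = 2.91e-04). All IkbkbCA libraries were higher. Bcl2a1a, another anti-apoptotic member, rose by 3.59 ± 0.49 (FDR = 4.40e-04). It has near-identical copies, and reads that fit several of them were dropped, so its level can be too low. Bcl2 was at 32.9 to 50.6 CPM in IkbkbWT and 31.1 to 53.5 CPM in IkbkbCA (log2 fold change 0.011 ± 0.18, FDR = 0.980).

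Genes of microglial states did not move as blocks. Among homeostatic microglial genes, 3 of 23 tested members were higher, 3 lower and 17 did not pass the threshold, with a median log2 fold change of -0.17, and 1 listed gene was not found in the files. Tmem119, a microglial membrane protein, was at 58.5, 59.8, 54.2, 31.8 and 38.3 CPM in IkbkbWT and 199, 233, 64.0, 107 and 132 CPM in IkbkbCA and rose (log2 fold change 1.602 ± 0.32, FDR = 0.00514). P2ry12, a purine receptor of resting microglia, was at 105.03, 98.4, 74.8, 90.3 and 89.4 CPM in IkbkbWT and 87.1, 83.8, 30.9, 75.6 and 78.8 CPM in IkbkbCA and did not pass the threshold (log2 fold change -0.36 ± 0.23, FDR = 0.345, or FDR = 0.0295 with the set as a covariate and 0.607 from summed pairs). Without replicate 3 the homeostatic list had 4 higher and 5 lower members, from summed pairs 0 and 1, and with the set as a covariate 4 and 8. Crybb1, a crystallin transcribed in microglia, was at 6.67, 6.91, 7.31, 8.11 and 9.22 CPM in IkbkbWT and 1.53, 2.88, 0.919, 1.68 and 3.004 CPM in IkbkbCA (log2 fold change -1.95 ± 0.29, FDR = 8.11e-04). Mef2c, a transcription factor of microglia, was at 374, 375, 387, 346 and 307 CPM in IkbkbWT and 248, 244, 159, 209 and 183 CPM in IkbkbCA (log2 fold change -0.78 ± 0.13, FDR = 0.00145). Both were lower in every IkbkbCA library than in any IkbkbWT library. Fcrls, an Fc receptor-like gene of microglia, fell as well (log2 fold change -1.91 ± 0.37, FDR = 0.00464).

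Among disease-associated microglial genes, 6 of 28 tested members were higher, 4 lower and 18 did not pass the threshold, with a median log2 fold change of 0.069, and 8 were lower with the set as a covariate. Of the 28 tested, 21 are also in another list, so this count is not separate from those of the other lists. B2m, the class I light chain, was at 3019, 2552, 2556, 1960.4 and 1642 CPM in IkbkbWT and 6677, 6538, 4619, 5773 and 5053 CPM in IkbkbCA (log2 fold change 1.29 ± 0.17, FDR = 3.67e-04). Lyz2, the macrophage lysozyme, was at 6852, 7139, 6572, 6166 and 6305 CPM in IkbkbWT and 13324, 11875, 23452, 15477 and 13777 CPM in IkbkbCA (log2 fold change 1.24 ± 0.17, FDR = 4.35e-04). Reads that fit both Lyz2 and its copy Lyz1 were dropped in counting. Ch25h, which makes 25-hydroxycholesterol, rose by 2.24 ± 0.34 (FDR = 9.13e-04), Cst7, a cystatin, by 1.76 ± 0.51 (FDR = 0.0399), and Apoe was at 16559.9 to 25414 CPM in IkbkbWT and 13343 to 22055 CPM in IkbkbCA (log2 fold change -0.33 ± 0.17, FDR = 0.243, or FDR = 0.0135 with the set as a covariate and 0.531 from summed pairs). The call for Cst7 was lost without any 1 of IkbkbWT replicates 1, 2, 4 and 5 or IkbkbCA replicates 1, 2, 3, 4 and 5 (log2 fold change 1.503 to 1.86).

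The decreases included markers of border-associated macrophages, cells that line vessels and meninges. The meninges had been removed at dissection. Of 7 tested markers 4 were lower and 1 higher (median log2 fold change -2.07). Their summed level was 1861 to 2552 CPM in IkbkbWT and 1401 to 1966 CPM in IkbkbCA (two-sided exact permutation test, p = 0.0159, adjusted p = 0.0385). Mrc1, the mannose receptor, was at 1299, 1189, 977, 1161 and 1136 CPM in IkbkbWT and 284, 247, 198, 329 and 316 CPM in IkbkbCA (log2 fold change -2.07 ± 0.14, FDR = 4.43e-06). Lyve1, F13a1 and Cbr2 fell as described above. Pf4 was at 281, 339, 288, 517 and 518 CPM in IkbkbWT and 245, 225, 813, 312 and 324 CPM in IkbkbCA (log2 fold change -0.018 ± 0.34, FDR = 0.983) and Folr2 at 36.9 to 149 CPM in IkbkbWT and 13.4 to 61.3 CPM in IkbkbCA (log2 fold change -1.31 ± 0.45, FDR = 0.0783), and neither passed the threshold. Ms4a7, in contrast, rose (log2 fold change 0.97 ± 0.097, FDR = 5.04e-05), and Cd163 was below the level for a test at 0 to 1.61 CPM in IkbkbWT and 0 to 0.751 CPM in IkbkbCA. Fewer cells of this kind and less RNA of these genes per cell cannot be told apart in bulk RNA. Astrocyte markers had 0 higher and 0 lower of 8 tested, and of 11 oligodendrocyte-lineage markers Cspg4 alone passed (log2 fold change 1.14 ± 0.19, FDR = 0.00214). Among granulocyte markers S100a8 rose (log2 fold change 2.52 ± 0.47, FDR = 0.00383), S100a9 did not pass (log2 fold change 0.036 ± 0.30, FDR = 0.959) and the other 6 listed were not tested. None of the 4 neuronal, 3 endothelial, 1 mural and 1 dendritic markers tested passed the threshold.

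Genes of inflammatory metabolism, glucose transport and ferritin were among those that rose. Among genes of redox, nitric oxide and inflammatory metabolism, 10 of 26 tested members were higher, 0 lower and 16 did not pass the threshold, with a median log2 fold change of 0.60. Gpr84, a receptor for medium-chain fatty acids, was at 19.0, 16.3, 15.8, 12.9 and 18.1 CPM in IkbkbWT and 198, 195, 315, 194 and 195 CPM in IkbkbCA (log2 fold change 3.74 ± 0.17, FDR = 3.02e-07). The levels of 4 IkbkbCA libraries were nearly the same, and replicate 3 was higher. Acod1, described above, had the lowest p of the list. Nampt, which makes NAD precursors, rose by 1.38 ± 0.084 (FDR = 2.09e-06), Ncf4, a subunit of the NADPH oxidase, by 1.20 ± 0.10 (FDR = 2.05e-05) and Sod2, the mitochondrial superoxide dismutase, by 1.74 ± 0.34 (FDR = 0.00513). From summed pairs 7 members were higher, and with the set as a covariate 16.

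Of 19 genes of glycolysis and glucose entry 8 were higher and 1 lower (median 0.34). Aldoa, aldolase A, was at 282, 278, 256, 257 and 255 CPM in IkbkbWT and 444, 458, 734, 499 and 479.6 CPM in IkbkbCA (log2 fold change 0.98 ± 0.13, FDR = 4.17e-04). Slc2a1, the glucose transporter GLUT1, was at 34.3, 37.4, 43.3, 32.6 and 36.2 CPM in IkbkbWT and 76.6, 70.8, 147, 77.9 and 79.1 CPM in IkbkbCA (log2 fold change 1.298 ± 0.19, FDR = 8.30e-04). Both were above IkbkbWT in all IkbkbCA libraries. Slc2a6, a lysosomal sugar transporter, rose by 1.79 ± 0.32 (FDR = 0.00292). The lactate exporter Slc16a3 rose (log2 fold change 1.21 ± 0.19, FDR = 0.00131) and the monocarboxylate transporter Slc16a1 fell (log2 fold change -0.76 ± 0.20, FDR = 0.0240). The call for Slc16a1 was lost without any 1 of IkbkbCA replicates 1, 2 and 4 (log2 fold change -0.67 to -0.74). Gapdh was at 1.15 to 1.83 CPM in IkbkbWT and 1.001 to 1.65 CPM in IkbkbCA, a level too low for a test in a gene with many near-identical pseudogenes. Reads that mapped to several places made up 52.5 to 53.7% of reads in IkbkbWT and 53.6 to 55.3% in IkbkbCA. Of 12 iron genes 3 were higher and 0 lower (median -0.0099). Fth1, the ferritin heavy chain, was at 5223, 5411, 4983, 4613 and 4539 CPM in IkbkbWT and 10483, 10026, 19017, 8739.7 and 7864 CPM in IkbkbCA (log2 fold change 1.18 ± 0.21, FDR = 0.00287). Cp, ceruloplasmin, was at 37.1, 40.5, 82.5, 21.7 and 17.8 CPM in IkbkbWT and 161, 143, 192, 104.8 and 79.9 CPM in IkbkbCA (log2 fold change 1.78 ± 0.38, FDR = 0.00845), and IkbkbWT replicate 3 overlapped with IkbkbCA. The third was Slc11a1, a metal transporter of phagosomes (log2 fold change 0.69 ± 0.15, FDR = 0.0107).

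Several lysosomal genes rose, autophagy genes changed in both directions, and lipid genes passed the threshold at shares near those of all genes tested. Of 33 lysosomal genes 7 were higher and 0 lower (median -0.049), 0 were higher from summed pairs, and 7 were higher and 6 lower with the set as a covariate. Npc2, a cholesterol carrier of the lysosome, was at 1995, 1991, 1982, 1832 and 1609 CPM in IkbkbWT and 3242, 3124, 2465, 2912 and 2553 CPM in IkbkbCA (log2 fold change 0.60 ± 0.10, FDR = 0.00209). Ctss, the protease cathepsin S, was at 2782, 2698, 2242, 1987 and 1975 CPM in IkbkbWT and 5004, 4740.1, 3212, 4257 and 3723 CPM in IkbkbCA (log2 fold change 0.84 ± 0.15, FDR = 0.00230). Ctsc, cathepsin C (log2 fold change 0.71 ± 0.14, FDR = 0.00541), and Ctso, cathepsin O (log2 fold change 0.55 ± 0.0999, FDR = 0.00300), rose. Ctsb was at 4327 to 6227 CPM in IkbkbWT and 4149 to 4967 CPM in IkbkbCA (log2 fold change -0.21 ± 0.12, FDR = 0.282) and Lamp1 at 2920.4 to 4297 CPM in IkbkbWT and 3155 to 4334 CPM in IkbkbCA (log2 fold change 0.081 ± 0.12, FDR = 0.747), and neither passed the threshold.

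Of 24 autophagy genes 4 (16.7%) were higher and 2 (8.33%) lower (median 0.031), against 7.31% and 7.16% of all genes tested, and 0 passed from summed pairs. Atg14, of the kinase complex that starts autophagosomes, was at 39.3, 36.8, 37.5, 35.1 and 39.4 CPM in IkbkbWT and 53.003, 53.1, 43.9, 47.5 and 47.1 CPM in IkbkbCA (log2 fold change 0.38 ± 0.080, FDR = 0.00772). Sqstm1, the cargo receptor p62, was at 472, 442, 392, 445 and 469 CPM in IkbkbWT and 713, 635, 791, 522 and 486 CPM in IkbkbCA (log2 fold change 0.50 ± 0.13, FDR = 0.0223). Rubcn, a brake on autophagy, fell (log2 fold change -0.45 ± 0.12, FDR = 0.0292). Wipi1, which binds autophagosome membranes, fell too (log2 fold change -0.38 ± 0.11, FDR = 0.0324). The call for Sqstm1 was lost without any 1 of IkbkbWT replicates 2, 3 and 4 or IkbkbCA replicates 1 and 2 (log2 fold change 0.47 to 0.50). The call for Rubcn was lost without any 1 of IkbkbWT replicates 3 and 5 or IkbkbCA replicates 2, 3 and 4 (log2 fold change -0.35 to -0.46). The call for Wipi1 was lost without any 1 of IkbkbWT replicates 1, 2, 3 and 5 or IkbkbCA replicates 1, 4 and 5 (log2 fold change -0.32 to -0.39). Of 27 genes of cholesterol and lipid handling 2 (7.41%) were higher and 3 (11.1%) lower (median -0.11), near the shares of all genes tested. With the set as a covariate 7 were lower. Pltp, which transfers phospholipids, was at 61.3, 58.8, 57.1, 72.8 and 54.1 CPM in IkbkbWT and 31.6, 32.03, 37.5, 30.6 and 33.0 CPM in IkbkbCA (log2 fold change -0.88 ± 0.098, FDR = 1.07e-04). Nr1h3, which encodes the sterol receptor LXRα, was at 1.63, 1.22, 1.73, 2.48 and 3.57 CPM in IkbkbWT and 6.29, 10.4, 11.4, 11.2 and 12.8 CPM in IkbkbCA (log2 fold change 2.24 ± 0.30, FDR = 4.05e-04). Abca1, a cholesterol exporter, was at 511 to 856 CPM in IkbkbWT and 633 to 727 CPM in IkbkbCA and did not pass (log2 fold change -0.11 ± 0.12, FDR = 0.656).

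Of 25 immediate early genes 1 (4%) was higher and 5 (20%) were lower (median -0.30), against 7.31% and 7.16% of all genes tested. Junb, an AP-1 subunit, was at 363, 341, 478, 420.1 and 352 CPM in IkbkbWT and 499, 576, 666, 657 and 632 CPM in IkbkbCA (log2 fold change 0.63 ± 0.11, FDR = 0.00309). Klf4, a transcription factor, was at 163, 151, 175, 153 and 138 CPM in IkbkbWT and 105.3, 119, 121, 129 and 114 CPM in IkbkbCA (log2 fold change -0.41 ± 0.084, FDR = 0.00653). Gadd45b, a stress sensor (log2 fold change -0.86 ± 0.20, FDR = 0.0140), and Klf2, a factor related to Klf4 (log2 fold change -0.40 ± 0.10, FDR = 0.0249), were lower too. The call for Klf2 was lost without any 1 of IkbkbWT replicates 1, 2, 3 and 4 or IkbkbCA replicates 1, 3, 4 and 5 (log2 fold change -0.34 to -0.40). Fos (log2 fold change 0.44 ± 0.28, FDR = 0.358, or FDR = 0.00692 with the set as a covariate and 0.540 from summed pairs) and Jun (log2 fold change -0.44 ± 0.14, FDR = 0.0599, or FDR = 0.00563 with the set as a covariate and 0.283 from summed pairs) did not pass the threshold, and 0 members passed in either direction from summed pairs. In the fit with the set as a covariate 4 were higher and 11 lower.

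Among matrix genes and proteases, 9 of 20 tested members were higher, 1 lower and 10 did not pass the threshold, with a median log2 fold change of 0.82. Tgm2, which crosslinks proteins, was at 42.4, 41.3, 38.5, 38.9 and 37.7 CPM in IkbkbWT and 107, 130.2, 179.6, 96.9 and 102 CPM in IkbkbCA (log2 fold change 1.63 ± 0.16, FDR = 4.48e-05). Adam17, the sheddase that releases TNF, was at 449, 431, 390.5, 391 and 344 CPM in IkbkbWT and 666, 669, 697, 713 and 649.6 CPM in IkbkbCA (log2 fold change 0.76 ± 0.082, FDR = 9.11e-05). The membrane protease Mmp14 rose by 3.18 ± 0.36 (FDR = 1.36e-04), and Spp1, which encodes osteopontin, fell (log2 fold change -0.53 ± 0.13, FDR = 0.0183). The call for Spp1 was lost without any 1 of IkbkbWT replicates 1 and 2 or IkbkbCA replicates 1, 2 and 3 (log2 fold change -0.43 to -0.50). Tgfbi, a matrix protein induced by TGF-β, rose by 1.29 ± 0.15 (FDR = 1.41e-04). Mmp9 rose by 4.72 ± 1.44 (FDR = 0.0475). The call for Mmp9 was lost without any 1 of IkbkbWT replicates 1, 2, 3, 4 and 5 or IkbkbCA replicate 3 (log2 fold change 0.74 to 5.24). The lowest of these was without IkbkbCA replicate 3. Of 14 acute phase and antimicrobial genes listed, 6 could be tested and 5 were higher (median 2.002). They were, named after their values were seen, Saa3, Hp, S100a8 and the lysozymes Lyz1 (log2 fold change 1.48 ± 0.21, FDR = 5.90e-04) and Lyz2. Hp passed the filter on low counts only through IkbkbCA. Lcn2, another acute phase gene, was at 0 to 4.04 CPM in IkbkbWT and 0 to 1.47 CPM in IkbkbCA, too low for a test.

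**Figure D4:**
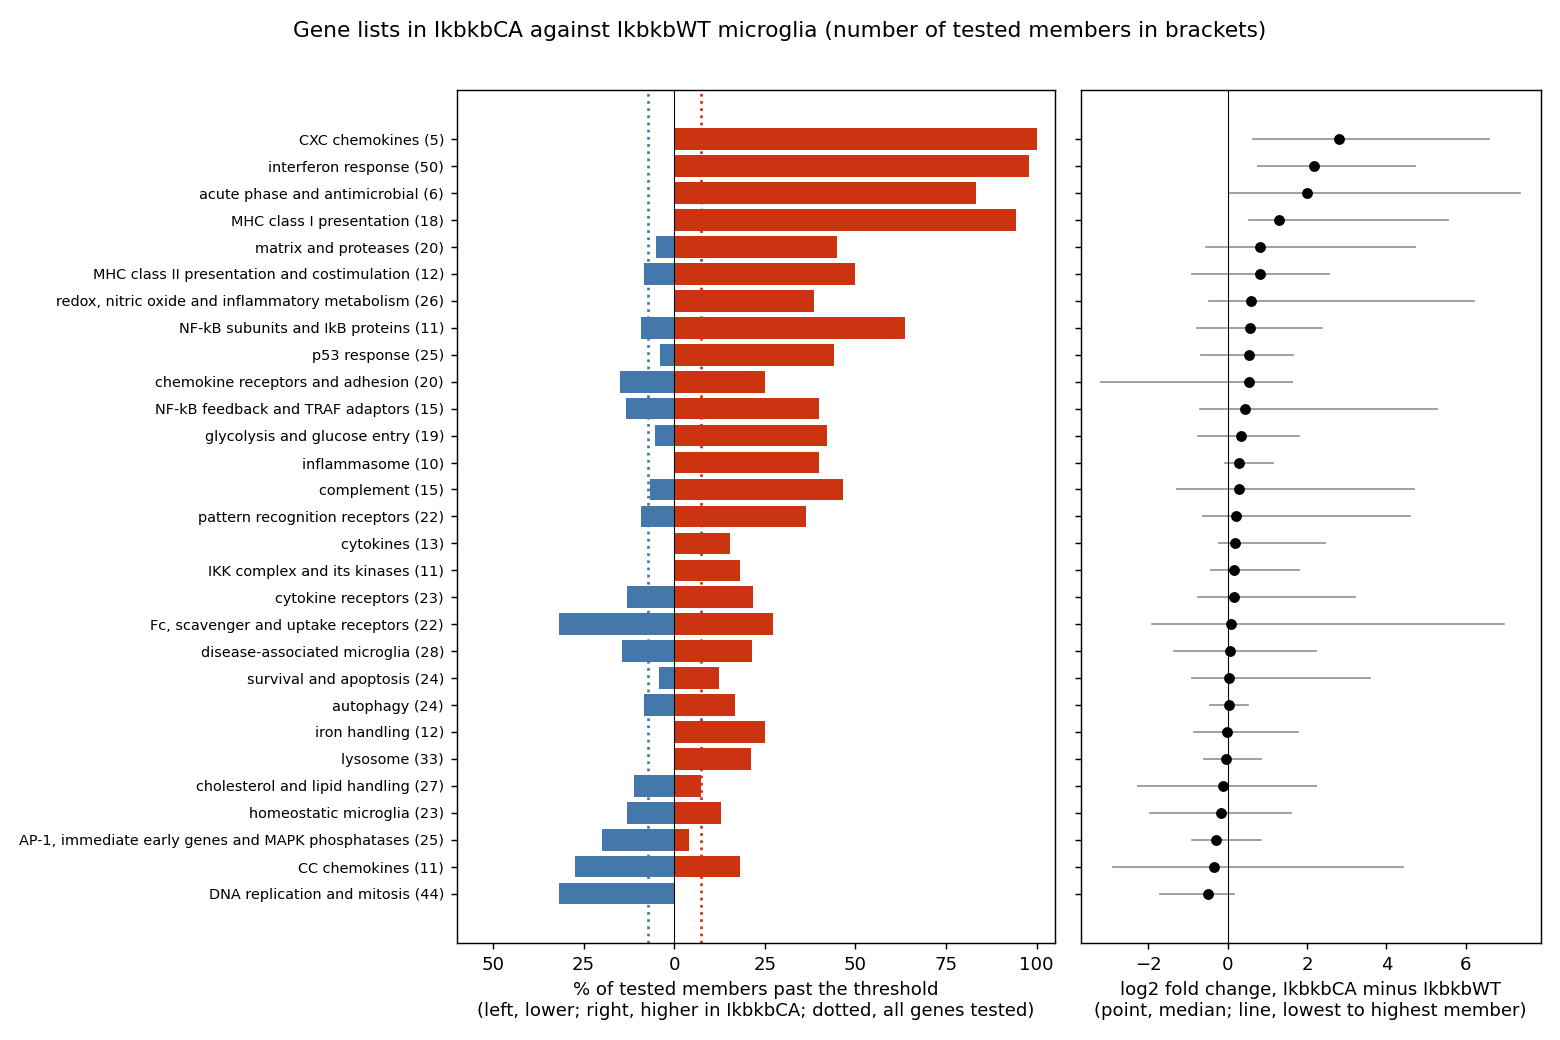
For 29 gene lists, the left panel gives the percent of tested members that were lower (blue, to the left) or higher (red, to the right) in IkbkbCA, with dotted lines for all genes tested (7.31% higher and 7.16% lower), and the right panel gives the median log2 fold change (point) and the range from the lowest to the highest member (line). CXC chemokines, interferon-response and MHC class I genes have the highest shares of higher members, and replication and mitosis genes the lowest median.

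The effect of IkbkbCA was then set beside that of the opposite manipulation, deletion of Ikbkb (Ikbkb-/- against Ikbkb+/+, 4 libraries each), which was made with the same Cx3cr1CreERT2 driver and with Cre-negative controls. The comparisons share no library. The libraries of the deletion experiment held 1792993 to 7436579 counts. Of 12352 genes tested, 386 (3.12%) differed between the 2 effects, 275 with the higher effect in IkbkbCA and 111 with the lower. Among the lists, the effects differed for 7 of 11 subunits and IκB proteins, 6 of 15 feedback regulators, 4 of 5 CXC chemokines and 4 of 6 acute phase genes. Nfkbia rose by 1.38 ± 0.13 on the log2 scale in IkbkbCA and was at -1.605 ± 0.27 in Ikbkb-/- (difference, FDR = 7.30e-05). Tlr2 was at -0.14 ± 0.087 in Ikbkb-/- against 2.27 ± 0.11 in IkbkbCA (FDR = 4.59e-09). For Acod1 the values were 0.73 ± 0.29 and 6.21 ± 0.24 (FDR = 2.38e-07). Ikbkb itself was at -1.20 ± 0.12 in Ikbkb-/- and at 0.17 ± 0.12 in IkbkbCA (FDR = 7.99e-05).

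Other gene groups moved in one direction in both genotypes. Over all 11242 genes tested in Ikbkb-/-, 859 were higher and 782 lower there. Of all genes compared between the 2 effects 3.12% differed, so few members of a list would differ at that share. Of the 50 interferon-response genes tested in Ikbkb-/-, 47 were higher there (median log2 fold change 2.42, against 2.17 in IkbkbCA), and 1 of 50 differed between the effects. Irf7 was at 5.07 ± 0.20 in Ikbkb-/- and 4.20 ± 0.38 in IkbkbCA (FDR = 0.435). Of 23 p53-response genes 17 were higher in Ikbkb-/- (median 0.55, against 0.54), and 0 of 25 differed. Cdkn1a was at 1.84 ± 0.090 and 1.33 ± 0.13 (FDR = 0.134). Of 44 genes of replication and mitosis 42 were lower in Ikbkb-/- (median -1.02, against -0.48), and 3 differed. The border-associated macrophage markers had a median of -1.55 in Ikbkb-/- and -2.07 in IkbkbCA, and Cx3cr1 was at -1.16 ± 0.12 and -0.56 ± 0.092 (FDR = 0.0556). A difference that misses the threshold does not show that the effects were equal. In both experiments the CreERT2 allele was present in the changed genotype only, and its part in these shared changes was not tested. Sex-linked genes also differed in the deletion experiment, where 4 of the 5 tested were higher and 1 lower in Ikbkb-/- (median log2 fold change 1.74). The part of sex in the deletion effects was not tested either.

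The effect of IkbkbCA was also set beside that of tau fibrils. Wild-type primary microglia were given fibrils of full-length wild-type tau at 2 μg/ml for 24 hours (4 libraries) or vehicle (4 libraries). They had been plated for 24 hours before treatment, whereas the IkbkbCA and IkbkbWT microglia were collected floating. The part of these culture conditions in the differences was not tested. Of 12841 genes, 1209 (9.42%) differed in effect from IkbkbCA, 456 with the higher effect in IkbkbCA and 753 with the lower. Over all 10408 genes tested with tau fibrils, 1506 were higher and 1602 lower than with vehicle. Of 10 NF-κB subunits and IκB proteins 8 were higher with tau fibrils, and 4 of 11 differed. Relb was at 1.62 ± 0.24 with tau fibrils and 1.72 ± 0.10 in IkbkbCA (FDR = 0.657), and Nfkbia at 1.13 ± 0.12 and 1.38 ± 0.13 (FDR = 0.277). Nfkb2 rose more with tau fibrils, by 2.30 ± 0.21 against 1.28 ± 0.13 (FDR = 0.00975), and Acod1 more in IkbkbCA, by 6.21 ± 0.24 against 3.59 ± 0.24 (FDR = 8.30e-05). Of 50 interferon-response genes 32 differed, with a median of 3.81 with tau fibrils. The p53-response genes had a median of -0.027 with tau fibrils, and 12 of 25 differed. Psrc1 fell by 1.27 ± 0.23 with tau fibrils and rose by 1.44 ± 0.18 in IkbkbCA (FDR = 1.77e-06). Stab1 rose by 0.86 ± 0.14 with tau fibrils and was at -1.92 ± 0.13 in IkbkbCA (FDR = 1.97e-08), and Cx3cr1 was at 1.08 ± 0.14 and -0.56 ± 0.092 (FDR = 3.45e-06). The libraries of this experiment held 1672052 to 4640645 counts.

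**Figure D5:**
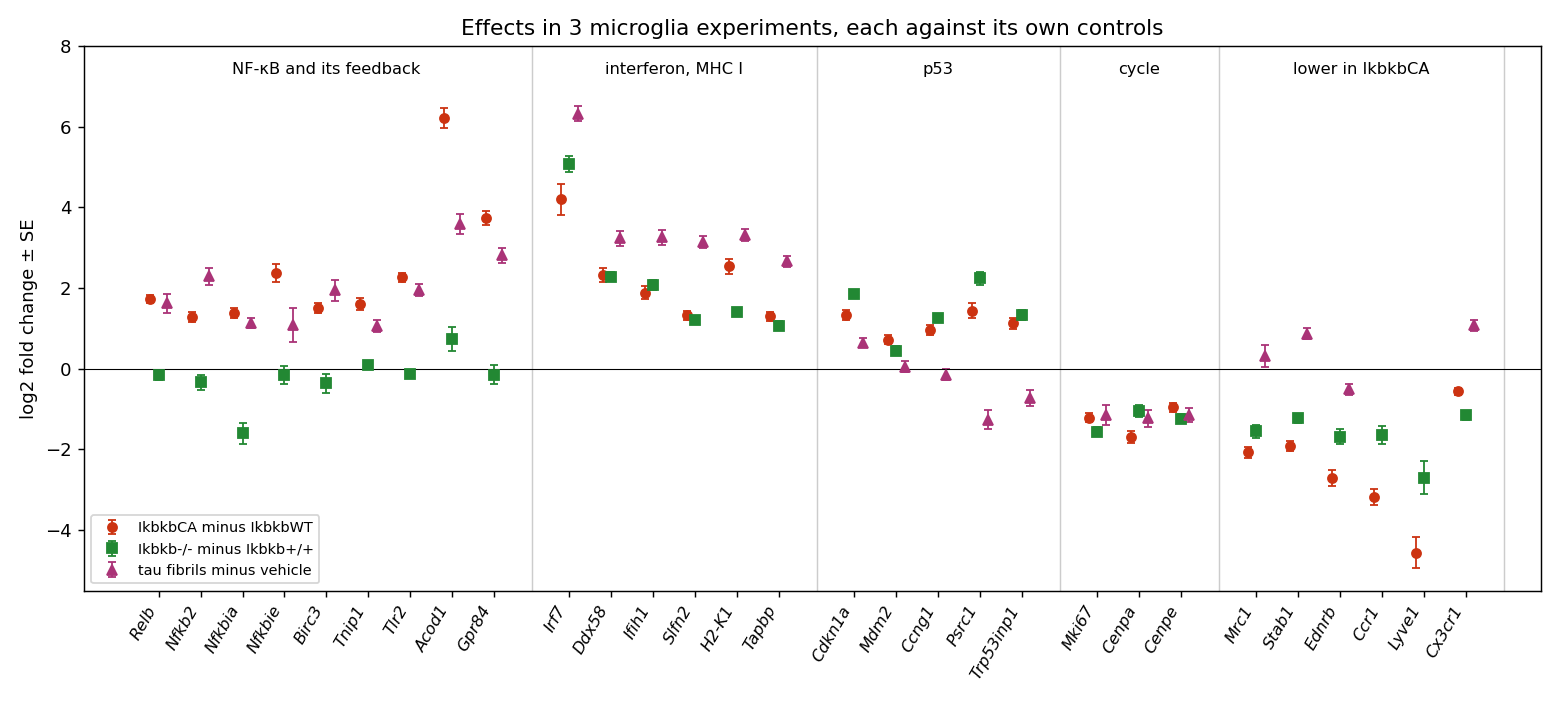
Points are log2 fold changes with their standard errors for 29 genes in IkbkbCA against IkbkbWT (red circles), Ikbkb-/- against Ikbkb+/+ (green squares) and tau fibrils against vehicle (purple triangles). NF-κB genes are raised in IkbkbCA and with tau fibrils and near or below 0 in Ikbkb-/-, except Acod1 at 0.73 ± 0.29, whereas interferon and MHC class I genes are raised in all 3 and the p53 genes in both Cre-bearing genotypes.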

How the data were processed

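Cultured mouse microglia were profiled by QuantSeq 3′ mRNA-Seq (FWD). The authors mapped the reads to GRCm38 with GENCODE annotation on the BlueBee platform. RSEM, STAR, edgeR and limma are named in the submitters' processing notes, with no versions. The deposited files hold 1 table of raw counts per sample, as whole numbers per Ensembl gene, and whether counting used strand is not given in the sources used here. The 5 lines per file that name no gene (reads outside genes, ambiguous or not unique) were left out of library sizes and tests. Of the reads, 52.5 to 55.3% were not unique and dropped by the authors' counting, which lowers genes with near-identical copies. Overlapping genes can share reads, and 43 of 161 named genes overlap another gene.

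The 10 libraries were tested with edgeR 4.0.16 in R 4.3.3 (TMM, filterByExpr with at least 10 counts in a library of median size and 15 in all, quasi-likelihood test, Benjamini-Hochberg FDR under 0.05). Genes nearly absent from 1 group passed this filter only through the other group, so their direction was largely fixed by it. SE is the log2 fold change divided by the square root of F. Effects were compared with those in Ikbkb-/- and tau-treated microglia by interaction terms in joint fits. Summed levels and shares were compared by two-sided exact permutation tests, adjusted by Benjamini-Hochberg. Alternatives were limma 3.58.1, DESeq2 1.42.0, other scaling and filters, covariates, sets of libraries and leaving out each library. The fits were tested on simulated data. Genes named are anchors of the lists, up to 4 DEGs of lowest p per list and the one of lowest p in the opposite direction, and the 12 largest increases and decreases without overlap. The comparison and gene lists were chosen with earlier results of these data known. Some genes are in more than 1 list. Some genes are not reported here. Promoter sequences are from RefSeq. Standard errors include the spread between libraries. The at-least folds allow for counting error in IkbkbWT only and take the IkbkbCA mean as it is.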

Additional observations from a re-analysis of the deposited data

Results flagged for a closer look

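In 50 of 342 groups of 5 libraries, 1 library lay far from the other 4 (Dixon's gap ratio over its 95% critical value for 5 samples), where chance gives about 1 in 20 groups. IkbkbCA replicate 3 was that library in 33 of them, as the highest in 27 and the lowest in 6, and these groups are not independent, since they share the library. All values here are CPM. Among NF-κB and survival genes IkbkbCA replicate 3 was highest with 1299 for Nfkbia, 9.01 for Traf1, 59.4 for Tnf, 50.2 for Cxcl13, 84.2 for Tnip3, 90.5 for Ikbke and 56.1 for Bcl2a1a. Among acute phase, matrix and surface proteins it was highest with 1352 for Mmp9, 24726 for Saa3, 424 for Hp, 1092 for Marco, 54.8 for Fpr2, 785 for Clec4d, 132 for Mmp14, 179 for Tgfbi and 92.5 for Lyz1. It was also highest with 50.2 for Pcna, 629 for Sod2, 19017 for Fth1, 221 for Acod1, 54.1 for H2-M2, 1.65 for Nxpe5, 734 for Aldoa, 147 for Slc2a1, 315 for Gpr84, 85.3 for the summed markers of granulocytes and 22.2 for the summed markers of monocytes and dendritic cells. It was lowest with 73.4 for Irf7, 30.9 for P2ry12, 59.4 for Ccl12, 33.8 for Il18, 57.7 for Ifih1 and 13.1 for Psrc1.

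IkbkbWT replicate 3 was highest in 10 groups, with 56.0 for Il1b, 31.0 for C3, 24.6 for Mmp9, 72.9 for Clec4d, 127 for Cfp, 2.89 for H2-Q7, 40.2 for Nusap1, 37.1 for Slc16a1, 846 for the summed markers of astrocytes and 5454 for the summed markers of oligodendrocyte lineage. The other 7 values were 58.6 CPM for Ikbkb in IkbkbWT replicate 2 (highest of its group), 359 CPM for Mdm2 in IkbkbWT replicate 5 (highest of its group), 4.26 CPM for H2-Q6 in IkbkbCA replicate 5 (lowest of its group), 0.993 CPM for H2-M2 in IkbkbWT replicate 4 (highest of its group), 0.346 CPM for Mcemp1 in IkbkbWT replicate 5 (highest of its group), 133 CPM for Cxcl14 in IkbkbCA replicate 5 (lowest of its group) and 0.231 CPM for the summed markers of lymphocytes in IkbkbWT replicate 5 (highest of its group). No cause was tested for any of these values.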

How the results depend on the processing

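The counts of DEGs, 855 higher and 837 lower, depended most on how the libraries were treated. They became 15 and 7 with reads outside annotated genes as a covariate, a share that separates the groups completely, and 240 and 97 with close pairs summed, of which 330 in all were among the 1692. They became 1286 and 1560 with the set as a covariate, 1427 and 1203 in the first set alone and 1303 and 1007 in replicates 4 and 5. Without a filter on low counts they became 785 and 536. Leaving out each library in turn gave 683 to 941 higher and 515 to 766 lower, the fewest lower without IkbkbWT replicate 1. The share of higher genes was 50.5%, and it moved to 37.6% with total counts instead of TMM, where the median log2 fold change was -0.11, 59.4% without the filter, 61.8% without IkbkbWT replicate 1, 68.2% with the outside share as a covariate and 71.2% with pairs summed. The genes that differed in effect from Ikbkb-/- numbered 285 to 431 without 1 library, and from tau fibrils 946 to 1349. Alternatives by set, and with pairs summed, were chosen after seeing the data. All 141 named DEGs had the same sign under every alternative run, and 13 passed in every one. Without 1 library, 17 of the 141 lost their call and 21 of 80 list counts moved by over 1.5 times, mostly counts of 1 to 5, such as autophagy genes (4 higher, down to 1) and disease-associated microglial genes (4 lower, down to 1). The sign turned only in genes that were no DEGs, given here with their log2 fold changes. For Chuk they were -0.085 to 0.11 without 1 library, 0.26 with the outside share as a covariate, 0.16 with replicates 4 and 5. For Rel they were -0.066 to 0.067 without 1 library, 0.024 with RLE size factors, 0.025 with DESeq2, 0.015 with no filter, 0.0094 with 18 libraries of both Ikbkb experiments in one fit, 0.29 with the outside share as a covariate, 0.24 with replicates 1 and 2, 0.078 with the second set left out. For Ccl2 they were -0.10 to 0.23 without 1 library, -0.53 with the outside share as a covariate, -0.16 with replicates 1 and 2. For Bcl2 they were -0.082 to 0.14 without 1 library, -0.053 with total counts, -0.049 with Ddx3y as a covariate, -0.0045 with the set as a covariate, -0.051 with pairs summed. For Ctsb they were 0.051 with the outside share as a covariate. For Abca1 they were 0.31 with the outside share as a covariate. The cause was not tested. The labels give no replicate numbers that pair libraries, so the set, seen in the data, was the block. Genes with fewer counts than the filter asks could not be tested at this depth.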
